A study of Mus musculus with 8 samples.

Results

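The protocadherins are the largest family of cadherin-like adhesion proteins. Every row of the count table whose symbol begins with Pcdh was taken, which gave 71 of 24047 rows: 15 alpha (Pcdha), 22 beta (Pcdhb), 22 gamma (Pcdhg) and 12 other, non-clustered rows. RNA came from tdTomato-positive cells sorted as astrocytes from the somatosensory cortex of mice aged postnatal day 23 to 25, enriched by exome capture and sequenced in 8 libraries. The 4 Ptch1cKO libraries came from Glast-CreERT2; Ptch1fl/fl; Ai14 mice, in which Ptch1, the inhibitory receptor for Sonic hedgehog, can be deleted on both chromosomes. The 4 WT libraries came from Glast-CreERT2; Ai14 mice. All 8 shared the tamoxifen-inducible Cre driven from the Glast (Slc1a3) promoter, the Ai14 tdTomato reporter and tamoxifen on postnatal days 12 to 14, so recombination depended on the activity of this promoter at that time, and no group lacked Cre or tamoxifen. Whether each library was a separate animal is not in the labels, and p-values refer to variation among these libraries alone.

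Clustered protocadherins lie side by side in 3 gene clusters. In the alpha and gamma clusters each variable first exon has its own promoter and is spliced to constant exons shared by the whole cluster, whereas each beta gene is a single exon. Single neurons switch on different combinations through the DNA-binding protein CTCF and the cohesin ring, and the matching of identical combinations between cell surfaces lets neurites of one cell recognise and avoid each other. Gamma protocadherins also act in astrocytes, where they take part in contacts with neurons and in the branching of the cell. The non-clustered members include the delta-1 group (Pcdh1, Pcdh7, Pcdh9, Pcdh11x) and the delta-2 group (Pcdh8, Pcdh10, Pcdh17, Pcdh18, Pcdh19), which mediate weak adhesion and signal to the actin skeleton.

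Libraries held 4061274 to 7206462 counts. Ptch1 averaged 224 ± 40.8 CPM (counts scaled by library size) in Ptch1cKO and 357 ± 122 CPM in WT (SD, n = 4 each), a log2 fold change of -0.67 (standard error, SE, 0.22) that was not called (edgeR, adjusted p = 0.349 over all genes tested), with overlapping groups. Summed levels of 10 astrocyte markers ran from 18681 to 37665 CPM in Ptch1cKO and from 24040 to 34955 CPM in WT. Those of 10 neuronal markers ran from 4019 to 5199 CPM in Ptch1cKO and from 4078 to 5601 CPM in WT. The 7 oligodendrocyte markers summed to 17528 to 23230 CPM in Ptch1cKO and 13803 to 26762 CPM in WT, and the 7 microglial markers to 397 to 1005 CPM in Ptch1cKO and 362 to 705 CPM in WT. Oligodendrocyte precursor markers (5 genes) summed to 112 to 170 CPM in Ptch1cKO and 77.8 to 149 CPM in WT. The 5 pericyte markers summed to 11.3 to 20 CPM in Ptch1cKO and 16.3 to 30.1 CPM in WT. No marker was called by edgeR or DESeq2. Fold changes were positive for 7 of 7 microglial markers (median 0.44 on the log2 scale), 4 of 4 tested precursor markers (0.41) and 5 of 7 oligodendrocyte markers (0.12), and negative for 2 of 2 tested pericyte markers (-0.74). An unadjusted p under 0.05 was given by 7 markers of 43 tested (16.3%, against 9.34% of all genes), 3 oligodendrocyte, 1 neuronal, 1 precursor and 1 microglial marker higher in Ptch1cKO and 1 pericyte marker lower. The part of these cells in the levels below was not tested. WT replicates 2 and 3 held 1148 and 612 counts of the X-inactivation transcript Xist, against at most 4 in each of the other 6 libraries.

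Of the 71 protocadherin rows, 69 had at least 1 count in the 8 libraries, and Pcdhgc3, the C-type gamma member that is used in most cells rather than chosen at random, stood above all others. Pcdhgc3 had a mean of 115 ± 17.1 TPM (a level scaled for transcript length and library size, as deposited by the authors; SD over all 8 libraries). Pcdh9 followed at 53.3 ± 7.91 TPM, Pcdh7 at 47.1 ± 9.08 TPM, Pcdh10 at 37.5 ± 8.98 TPM and Pcdh1 at 30.6 ± 6.22 TPM. Then came Pcdh17 at 24.5 ± 5.78 TPM, Pcdh11x at 21 ± 6.68 TPM and Pcdhgc5 at 9.91 ± 2.48 TPM. Pcdhgc3 lay between 88.5 and 139 TPM and Pcdh9 between 41.1 and 65.7 TPM, so these 2 did not overlap. From Pcdh9 to Pcdh11x the ranges of neighbours in this order overlapped. Within libraries, Pcdh9 was above Pcdh7 in 7 of 8, Pcdh7 above Pcdh10 in 8 of 8, and each of Pcdh10, Pcdh1 and Pcdh17 above the next in 6 of 8. The same 8 genes came first in the same order when counts of alpha and gamma members were divided by first exon length alone. For the non-clustered members the length used came from the ratio of count to TPM, so this could not change their order among themselves. The first exon is shorter than the whole transcript, which could only raise alpha and gamma members against these. Exome capture also sets levels, so differences between genes include capture efficiency.

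**Figure D1:**
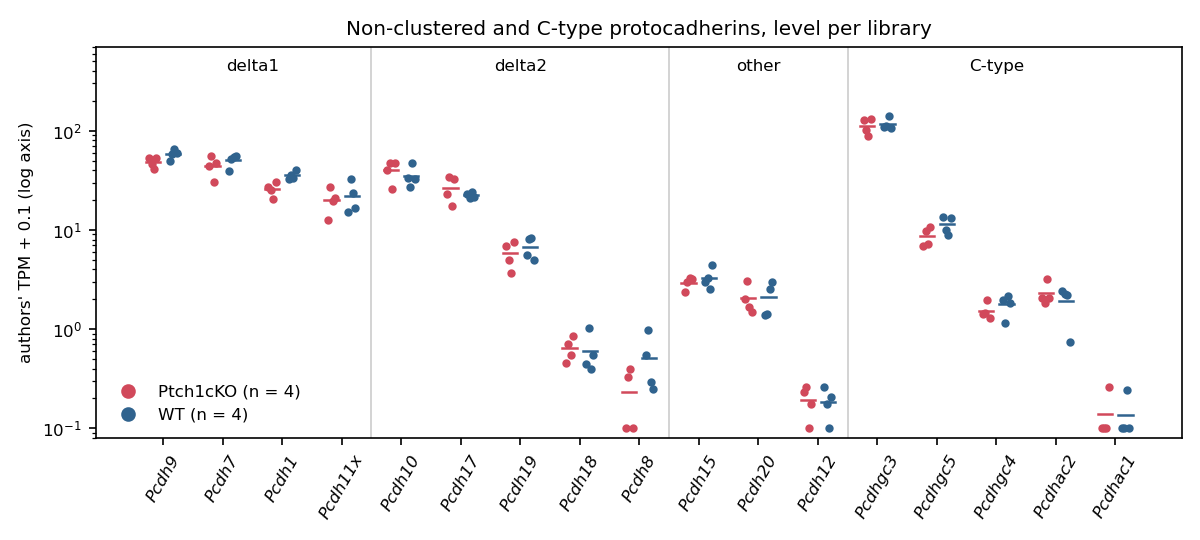
Level of the non-clustered and C-type protocadherins in each library as TPM + 0.1 on a log axis, with a point per library and a line at the mean (4 Ptch1cKO and 4 WT libraries). Pcdhgc3 lies above all others in both groups, Pcdh9, Pcdh7, Pcdh1, Pcdh11x, Pcdh10 and Pcdh17 form a second tier, and Pcdh12, Pcdh8 and Pcdhac1 are near 0.

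No protocadherin passed the test between Ptch1cKO and WT. The test could be run on 44 of the 71 rows, those with enough counts (7 alpha, 8 beta, 20 gamma and 9 other), and 0 of them were called by edgeR's quasi-likelihood test at a Benjamini-Hochberg adjusted p under 0.05, where 11 of 10954 genes were called in all (0.1%; 9 higher and 2 lower). The smallest adjusted p of a member was 0.421. Before adjustment 2 members (4.55%) had a p under 0.05, against 9.34% of all genes tested. The 2 groups did not overlap in 4 members (9.09%), against 5.02% of all genes. DESeq2 also called 0 members, of 79 genes in all, and edgeR without the count filter called 1, Pcdhb15. Fold changes were positive for 21 members and negative for 23, with a median of -0.03 on the log2 scale, and in all genes tested 49.6% were positive. In these sorted populations fewer cells of a kind and less RNA per cell cannot be told apart.

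**Figure D2:**
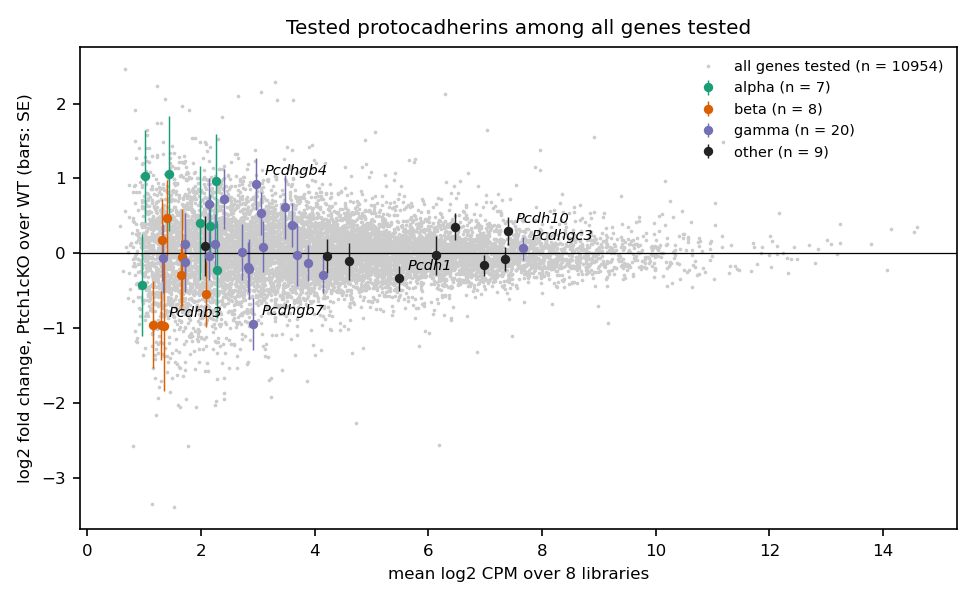
Log2 fold change of Ptch1cKO over WT against mean log2 CPM for all 10954 genes tested (grey) and the 44 tested protocadherins (coloured by class, bars are the SE). Protocadherins lie within the cloud of all genes, the alpha and beta members at its low-abundance end with wide bars, and Pcdhgb4 and Pcdhgb7 lie on opposite sides of 0.

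The gamma cluster spans positions 37661775 to 37841873 on the plus strand of chromosome 18 (mm10), with A-type (Pcdhga), B-type (Pcdhgb) and, at its end, C-type (Pcdhgc) first exons. Its summed level was 363, 343, 311 and 414 CPM in Ptch1cKO replicates 1 to 4, and 335, 331, 399 and 289 CPM in WT replicates 1 to 4. The groups overlapped, with means of 358 ± 43.1 CPM in Ptch1cKO and 339 ± 45.1 CPM in WT (SD, n = 4 each). The ratio of these means was 1.06, and 0.98 from the summed TPM. All 22 gamma members had a count in each Ptch1cKO library, and 21 or 22 had one in each WT library.

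Pcdhgc3 carried the cluster. It lies at positions 37806410 to 37841873 of chromosome 18 and had 1649, 1057, 708 and 1423 counts in Ptch1cKO replicates 1 to 4, and 1122, 1195, 1704 and 857 counts in WT replicates 1 to 4. Scaled for library size this was 207 ± 32.4 CPM in Ptch1cKO and 198 ± 27.5 CPM in WT. The groups overlapped almost wholly, and the log2 fold change of 0.06 (SE 0.15, edgeR adjusted p = 0.94) had an interval (1.96 SE either side) from -0.22 to 0.35. Pcdhgc3 made up 53.5 to 64.6% of gamma counts in Ptch1cKO libraries and 56.3 to 61.0% in WT libraries, and was the largest member in 8 of 8 libraries. An exon of BC037039 on the opposite strand overlaps it. The sources used here do not say whether counting used strand.

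Pcdhgc5, a C-type member best known from postnatal neurons, was the next gamma member. It had 12.2, 17.5, 14 and 19.0 CPM in Ptch1cKO, against 23.6, 16.7, 15.1 and 21.8 CPM in WT. The highest levels were in WT replicates 1 and 4, and the groups overlapped (log2 fold change -0.29, SE 0.24, edgeR adjusted p = 0.767). The third C-type gamma member, Pcdhgc4, which in mice is needed for the survival of inhibitory neurons, was low at 2.85 ± 0.733 CPM in Ptch1cKO and 3.07 ± 0.839 CPM in WT (log2 fold change -0.12, SE 0.40, edgeR adjusted p = 0.966). Per transcript length Pcdhgc4 had 1.56 TPM over the 8 libraries, against 115 TPM for Pcdhgc3 on the same scale.

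Pcdhgb4 and Pcdhgb7, B-type members that differ in their first exon and share the constant end, stood on opposite sides. Pcdhgb4 had 9.94, 12.3, 9.35 and 7.93 CPM in Ptch1cKO, and 6.73, 7.86, 3.77 and 2.26 CPM in WT. All 4 Ptch1cKO libraries were above all 4 WT libraries, the nearest being Ptch1cKO replicate 4 at 7.93 CPM and WT replicate 2 at 7.86 CPM. Its log2 fold change was 0.93 (SE 0.35, edgeR unadjusted p = 0.0191, adjusted p = 0.432). With 1 library left out it ran from 0.69 without WT replicate 4 to 1.2 without WT replicate 2, and edgeR's unadjusted p was above 0.05 without Ptch1cKO replicate 2, at 0.0577, and without WT replicate 3, at 0.0552.

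Pcdhgb7 had 5.96, 4.00, 3.44 and 5.95 CPM in Ptch1cKO, and 6.39, 7.07, 16.2 and 7.82 CPM in WT. Every Ptch1cKO library was below every WT library, and WT replicate 3 stood far above the rest. Its log2 fold change was -0.94 (SE 0.35, edgeR unadjusted p = 0.0173, adjusted p = 0.421). Without WT replicate 3 it was -0.54 (SE 0.33, edgeR unadjusted p = 0.127). Without Ptch1cKO replicate 3 it was -0.82 (SE 0.38, edgeR unadjusted p = 0.0506). Without WT replicates 2 and 3 together it was -0.54 (SE 0.39, edgeR unadjusted p = 0.19). Of the first exon of Pcdhgb4, 10.4% of 50-base words recur in another gene, and 2.67% for Pcdhgb7, whose transcript also overlaps Gm26672 on the opposite strand.

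Below Pcdhgc3 and Pcdhgc5, mean levels of the other gamma members ran from 0.51 TPM for Pcdhga1 to 7.50 TPM for Pcdhga12. The 5 with the highest level per length were Pcdhgc3 and Pcdhgc5, then Pcdhga12, Pcdhgb5 at 7.38 TPM and Pcdhga11 at 6.61 TPM. Pcdhga12 averaged 13.6 ± 3.54 CPM in Ptch1cKO and 15.0 ± 1.18 CPM in WT (log2 fold change -0.14, SE 0.24), and Pcdhga11 averaged 13.3 ± 3.47 CPM in Ptch1cKO and 10.2 ± 3.34 CPM in WT (0.38, SE 0.29). Pcdhgb5 varied within both groups, with 7.81, 8.69, 21.6 and 12.7 CPM in Ptch1cKO and 23.4, 14, 7.13 and 6.38 CPM in WT (-0.02, SE 0.42). Summed over its 12 members, the A-type group had 84.7 ± 18.1 CPM in Ptch1cKO and 74.7 ± 17.5 CPM in WT, and the B-type group (7 members) had 47.9 ± 5.78 CPM in Ptch1cKO and 43.7 ± 9.57 CPM in WT. Pcdhga3, with 12.4, 12, 10.6 and 17.4 CPM in Ptch1cKO and 2.86, 14, 13.1 and 3.71 CPM in WT, was low in WT replicates 1 and 4 only (0.62, SE 0.43, edgeR adjusted p = 0.71). Without WT replicates 2 and 3, which left 2 WT libraries, the log2 fold change of Pcdhga3 was 2.0 (SE 0.38, edgeR unadjusted p = 0.000125, adjusted p = 0.19). Of the 20 tested gamma members 11 had a positive and 9 a negative fold change, with a median of 0.04 on the log2 scale.

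**Figure D3:**
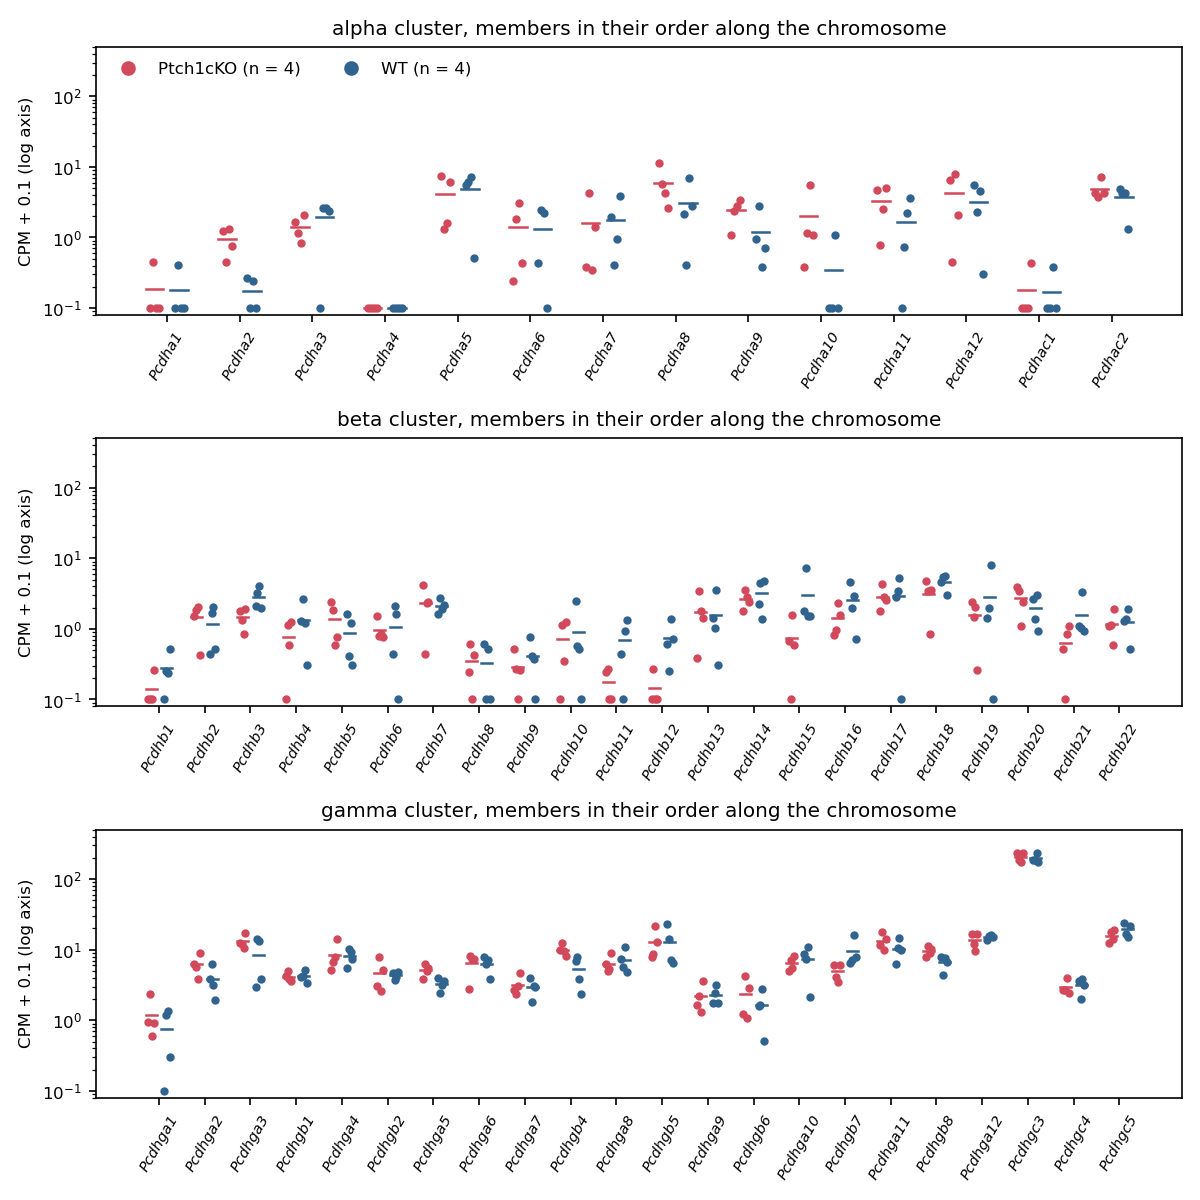
Level of each clustered protocadherin in each library as CPM + 0.1 on a log axis, members in their order along chromosome 18, with a point per library and a line at the mean (4 Ptch1cKO and 4 WT libraries). Pcdhgc3 stands alone in the gamma cluster, and points of 1 alpha or beta member are often spread over more than 10-fold within a group.

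The alpha cluster (positions 36930285 to 37188897 of chromosome 18) was low and its leading member changed from library to library. Its summed level was 38.1, 22.4, 36.4 and 28.4 CPM in Ptch1cKO, and 20.7, 21.5, 31.9 and 14.6 CPM in WT. WT replicate 3 lay within the Ptch1cKO range, and Ptch1cKO replicates 2 and 4 within the WT range. The means were 31.3 ± 7.28 CPM in Ptch1cKO and 22.2 ± 7.16 CPM in WT, a ratio of 1.41, and 1.30 from the summed TPM. Of 7 tested members 5 had a positive and 2 a negative fold change, with a median of 0.40 on the log2 scale, and 0 had an unadjusted p under 0.05.

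The largest alpha member was Pcdha5 in 4 libraries (in WT replicate 1 level with Pcdha12, at 32 counts each), Pcdha8 in 2, and Pcdha12 and Pcdha7 in 1 each. Pcdha8 had 11.1, 5.56, 4.18 and 2.48 CPM in Ptch1cKO, and 2.02, 0.314, 6.85 and 2.68 CPM in WT (log2 fold change 0.97, SE 0.63, edgeR adjusted p = 0.678). Its lowest value, 2 counts, and a value of 49 counts both came from WT libraries, and the log2 fold change was 0.44 without Ptch1cKO replicate 1 and 1.84 without WT replicate 3. Pcdha5 had 7.39, 1.22, 1.48 and 5.95 CPM in Ptch1cKO, and 5.38, 5.97, 7.13 and 0.412 CPM in WT (-0.22, SE 0.65, adjusted p = 0.961). High and low libraries occurred in both groups for Pcdha5 too. Pcdha12 ran from 0.348 to 7.87 CPM in Ptch1cKO and from 0.206 to 5.38 CPM in WT (0.40, SE 0.76). Pcdha11 ran from 0.695 to 4.96 CPM in Ptch1cKO and from 0 to 3.5 CPM in WT (1.06, SE 0.77), and leaving out WT replicate 1 or WT replicate 4 gave 0.65 or 1.75.

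The C-type alpha members differed from each other. Pcdhac2, which serotonergic neurons of the mouse need for the even spread of their axons, had 4.12, 3.65, 7.13 and 4.13 CPM in Ptch1cKO, and 4.71, 4.24, 4.19 and 1.24 CPM in WT (log2 fold change 0.37, SE 0.42, edgeR adjusted p = 0.839). Apart from 1 high Ptch1cKO and 1 low WT library, the other 6 lay within 3.65 to 4.71 CPM, and without that WT library (replicate 4) the log2 fold change was 0.10. Pcdhac1 had 2 counts in Ptch1cKO replicate 4, 2 in WT replicate 3 and none elsewhere. The rows Pcdha4 and Pcdha4-g were at 0 in all 8 libraries, and 96.2% of the 50-base words in the first exon of Pcdha4 occur in another gene, mainly Gm42416. For these rows only that they are listed at 0 can be said.

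The beta cluster (positions 37264998 to 37521419 of chromosome 18) was spread thinly over many members. Its summed level was 28.8, 29.7, 22.6 and 25.6 CPM in Ptch1cKO, and 34.3, 41.8, 50.2 and 18.9 CPM in WT. Of the WT libraries 3 were above all Ptch1cKO libraries and WT replicate 4 was below all of them. The means were 26.7 ± 3.23 CPM in Ptch1cKO and 36.3 ± 13.3 CPM in WT, a ratio of 0.735, and 0.688 from the summed TPM. No member held more than 25% of beta counts in any library, and Pcdhb14, Pcdhb15, Pcdhb16, Pcdhb17, Pcdhb18 and Pcdhb19 each had the highest count, alone or tied, in at least 1 library.

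Of 8 tested beta members 2 had a positive and 6 a negative fold change, with a median of -0.42 on the log2 scale, and 0 had an unadjusted p under 0.05. Without WT replicates 2 and 3 the count filter was run anew, so the members tested could differ from these 8. The median was then 0.35, with 5 positive fold changes, and the ratio of sums over all beta members was 1.0. Pcdhb3 had 1.70, 1.22, 0.738 and 1.82 CPM in Ptch1cKO, and 2.02, 3.14, 3.91 and 1.85 CPM in WT. All Ptch1cKO libraries were below all WT libraries, the nearest being 1.82 CPM in Ptch1cKO and 1.85 CPM in WT. The log2 fold change of Pcdhb3 was -0.97 (SE 0.46, edgeR unadjusted p = 0.0516, adjusted p = 0.541), and -0.46 (SE 0.64) without WT replicates 2 and 3. Pcdhb18 averaged 3.05 ± 1.66 CPM in Ptch1cKO and 4.55 ± 1.19 CPM in WT (-0.55, SE 0.44). Pcdhb14 averaged 2.55 ± 0.742 CPM in Ptch1cKO and 3.15 ± 1.69 CPM in WT (-0.29, SE 0.47), and Pcdhb20 averaged 2.61 ± 1.25 CPM in Ptch1cKO and 1.88 ± 1.01 CPM in WT (0.47, SE 0.51). Pcdhb17 averaged 2.76 ± 1.03 CPM in Ptch1cKO and 2.79 ± 2.14 CPM in WT, with no count in WT replicate 4 (-0.05, SE 0.65).

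**Figure D4:**
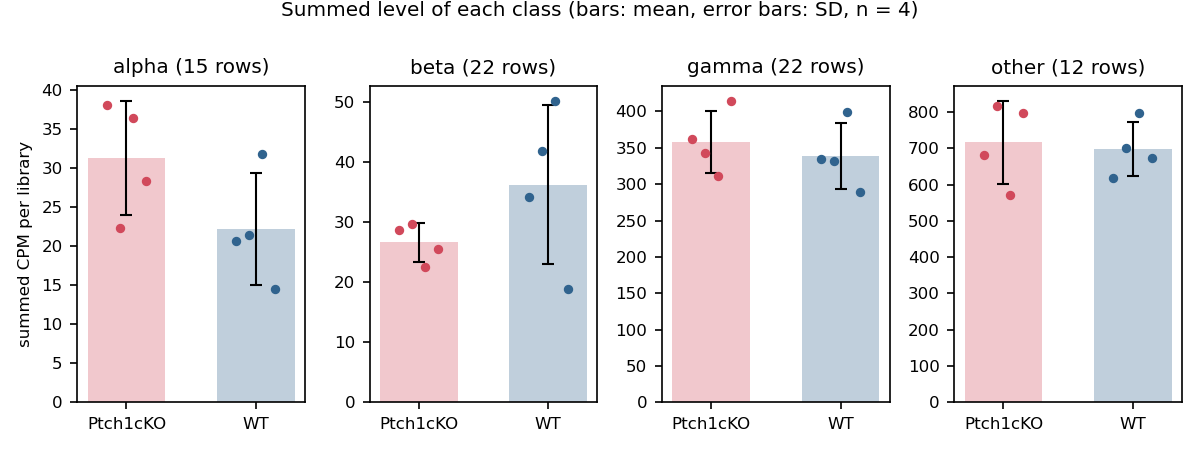
Summed CPM of the alpha, beta, gamma and other protocadherins in each library (points), with the mean (bar) and SD (error bar) of 4 Ptch1cKO and 4 WT libraries. The ranges of Ptch1cKO and WT overlap in each of the 4 classes, and the WT beta sums are the widest relative to their mean.

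Non-clustered protocadherins together made up 716 ± 114 CPM in Ptch1cKO and 697 ± 74.2 CPM in WT, a ratio of 1.03, and 0.914 from the summed TPM. Of 9 tested members 3 had a positive and 6 a negative fold change, with a median of -0.04 on the log2 scale, and 0 had an unadjusted p under 0.05. The largest share belonged to Pcdh10 in 6 libraries and to Pcdh7 in 2.

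Among the delta-1 members, Pcdh1 (chromosome 18, 38185914 to 38212048, minus strand), known as an adhesion protein of epithelia, had 40.6, 37.4, 33.2 and 45.9 CPM in Ptch1cKO, and 47.4, 50, 47.1 and 54.4 CPM in WT. All Ptch1cKO libraries were below all WT libraries. The difference was small, 39.3 ± 5.38 CPM in Ptch1cKO and 49.7 ± 3.34 CPM in WT, and the log2 fold change was -0.34 (SE 0.17, edgeR unadjusted p = 0.0592, adjusted p = 0.559). It was negative under every alternative setting, from -0.46 to -0.27 on the log2 scale. The deposited TPM of Pcdh1 averaged 25.8 ± 4.34 in Ptch1cKO libraries and 35.3 ± 3.27 in WT libraries. Over all tested protocadherins the median log2 fold change was -0.12 with limma on TPM, against -0.03 from counts. By class it was -0.1 against 0.04 for gamma and -0.14 against -0.04 for other members. For alpha it was 0.37 against 0.40, and for beta -0.28 against -0.42, so TPM did not run lower in every class.

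Pcdh9 (chromosome 14, 93013700 to 93892834, minus strand) had 127, 110, 108 and 128 CPM in Ptch1cKO, and 116, 132, 150 and 131 CPM in WT (log2 fold change -0.16, SE 0.14, edgeR adjusted p = 0.779). The ranges of Pcdh9 overlapped, with the lowest values in Ptch1cKO replicates 2 and 3. Pcdh7 (chromosome 5, 57716145 to 58133236), which binds the phosphatase PP1 through its cytoplasmic tail, had 156, 193, 116 and 165 CPM in Ptch1cKO, and 133, 171, 182 and 179 CPM in WT (-0.08, SE 0.16, adjusted p = 0.935). Both the highest and the lowest Pcdh7 values came from Ptch1cKO libraries. The X-linked Pcdh11x had 42.3, 90.9, 73.1 and 70.9 CPM in Ptch1cKO, and 49.8, 105, 76.5 and 50.9 CPM in WT (-0.03, SE 0.26, adjusted p = 0.988). WT replicates 2 and 3, the libraries with Xist, were the 2 highest WT libraries for Pcdh11x, and without them the log2 fold change was 0.46. Summed, the delta-1 members had 384 ± 45.2 CPM in Ptch1cKO and 419 ± 52.3 CPM in WT, a ratio of 0.918.

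Among the delta-2 members, Pcdh10 (chromosome 3, 45378398 to 45434579, plus strand), which binds the actin regulator complex that holds Cyfip1 or Cyfip2, had 184, 214, 129 and 214 CPM in Ptch1cKO, and 147, 116, 205 and 137 CPM in WT. Ptch1cKO replicate 3 and WT replicate 3 each lay with the other group, and the log2 fold change was 0.29 (SE 0.19, edgeR adjusted p = 0.674, interval -0.08 to 0.67). An exon of 1700027H10Rik overlaps Pcdh10 on the opposite strand. Pcdh17 (chromosome 14, 84443563 to 84537565), which acts at synapses and axons of the basal ganglia and amygdala, had 84.6, 125, 69.1 and 119 CPM in Ptch1cKO, and 82.3, 72.9, 84.4 and 71.6 CPM in WT (0.36, SE 0.18, adjusted p = 0.587). The WT values of Pcdh17 lay close together, and those of Ptch1cKO spread from below to above them, highest in replicates 2 and 4. Pcdh10 was also highest in Ptch1cKO replicates 2 and 4. Pcdh19, an X-linked gene whose human form is mutated in an epilepsy that mainly affects females, had 27.4, 19.5, 15.7 and 29.8 CPM in Ptch1cKO, and 21.2, 29.9, 31.2 and 17.7 CPM in WT (-0.11, SE 0.25, adjusted p = 0.941). WT replicates 2 and 3 were again the 2 highest of the WT libraries, and without them the log2 fold change was 0.25. The delta-2 sum was 309 ± 70 CPM in Ptch1cKO and 256 ± 45.6 CPM in WT, a ratio of 1.21, with overlapping groups.

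Of the delta-2 group, Pcdh10 was the most abundant member and Pcdh8, an activity-regulated neuronal protein also called arcadlin, the least, with 0, 2, 2 and 0 counts in Ptch1cKO and 4, 8, 2 and 1 counts in WT. The 250 bases before the start of each gene are shown because these 2 relatives are the ends of the range of levels, with each CpG dinucleotide in capitals (RefSeq, GRCm38.p6, read 5′ to 3′ on the strand of the gene). Pcdh10 lies on the plus strand (chr3:45378148-45378397) and Pcdh8 on the minus strand (chr14:79771313-79771562).
Pcdh10: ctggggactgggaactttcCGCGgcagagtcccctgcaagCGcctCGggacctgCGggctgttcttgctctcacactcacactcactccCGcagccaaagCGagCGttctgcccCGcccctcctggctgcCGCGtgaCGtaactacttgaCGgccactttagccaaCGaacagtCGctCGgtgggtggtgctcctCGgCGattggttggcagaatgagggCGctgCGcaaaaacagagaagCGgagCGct
Pcdh8: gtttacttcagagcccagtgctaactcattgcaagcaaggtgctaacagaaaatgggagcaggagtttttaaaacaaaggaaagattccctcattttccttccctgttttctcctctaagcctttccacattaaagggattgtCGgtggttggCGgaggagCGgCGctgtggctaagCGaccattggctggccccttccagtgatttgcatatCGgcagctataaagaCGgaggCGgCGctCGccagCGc
The Pcdh10 window held 22 CpG and the Pcdh8 window 11, where the median of 27025 promoters was 6. At least as many CpG stood in 14.6% of promoters for Pcdh10 and 36.0% for Pcdh8. The letters TATAAA, searched on both strands, were in the Pcdh8 window and not in that of Pcdh10, and 13% of all promoters held them. Promoters were matched for 9 of the 71 rows, all non-clustered. Per transcript length, Pcdh10 had 37.5 TPM and Pcdh8 0.273 TPM. The other delta-2 windows held 21 CpG for Pcdh17 (24.5 TPM), 16 for Pcdh19 (6.17 TPM) and 23 for Pcdh18 (0.524 TPM), none with TATAAA. Pcdh18 thus had the most CpG of the group at a low level. The windows of Pcdh19 (chrX:133688994-133689243) and Pcdh18 (chr3:49757317-49757566) are not wholly before the start. These genes, on the minus strand, reach up to positions 133689044 and 49757383. For Pcdh19 the bases after the window were also not found in a transcript of the gene. Whether these sequences bear on level was not tested.

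The remaining non-clustered members were low. Pcdh15, part of the tip link of hair cells in the inner ear, had 14.1, 17.7, 21.6 and 19.2 CPM in Ptch1cKO, and 17.3, 18.4, 14.3 and 24.5 CPM in WT (log2 fold change -0.04, SE 0.23, edgeR adjusted p = 0.98). Pcdh20 averaged 4.00 ± 1.34 CPM in Ptch1cKO and 3.75 ± 1.45 CPM in WT (0.10, SE 0.40). Pcdh18 had 5, 7, 4 and 9 counts in Ptch1cKO, and 4, 11, 4 and 4 counts in WT. Pcdh12, a member known from endothelial cells, had at most 2 counts in any library. The 6 endothelial markers summed to 4.63 to 14.2 CPM in Ptch1cKO and 3.20 to 17.1 CPM in WT, and 2 of them (Cldn5 and Pecam1) stayed under 1 CPM in every library.

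Of the 27 members with too few counts for the test, 25 had a count somewhere, with at most 46 counts in a library. Mean CPM was higher in Ptch1cKO for 13 and lower for 12. An exact two-sided permutation test over the 70 assignments of the libraries can give no p below 0.0286. It gave this smallest p for 1 of the 25 members, Pcdha2. Its p-values were not corrected for the 25 members tested. The share of all genes below the filter that reach this p was not determined, so the count has no background. Pcdha2 had 8, 2, 5 and 4 counts in Ptch1cKO, and 1, 0, 1 and 0 counts in WT. Each Ptch1cKO library was above each WT library. Pcdha10, in the same cluster, had 2, 6, 22 and 6 counts in Ptch1cKO, and 0, 0, 7 and 0 counts in WT (permutation p = 0.0571). Pcdhb15 went the other way, with 4, 0, 6 and 3 counts in Ptch1cKO and 10, 46, 10 and 7 counts in WT (permutation p = 0.0857). Without the count filter Pcdhb15 was the 1 member called, at a log2 fold change of -2.28 (SE 0.65, edgeR adjusted p = 0.0452), where 199 genes were called in all. WT replicate 2 held 46 of the 73 WT counts of Pcdhb15.

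Libraries of 1 group varied most in the alpha and beta members and least in the non-clustered members. The biological coefficient of variation (the spread between libraries beyond counting error, as estimated by edgeR) had a median of 0.594 in the 7 tested alpha members, 0.44 in the 8 beta, 0.327 in the 20 gamma and 0.202 in the 9 other members. The median of all genes tested was 0.254, but low genes vary more. Among the 2127 genes in the same range of abundance as the alpha members the median was 0.385, and among the 1534 genes in the range of the beta members it was 0.389. The estimate lay above the trend for genes of the same abundance in 6 of 7 alpha members, 5 of 8 beta, 8 of 20 gamma and 4 of 9 other members. The same held for 40.6% of all genes in the range of the alpha members, 41.8% in that of the beta members, 34.1% in that of the gamma members and 33.2% in that of the other members. Pcdhb19 was the most variable member at 0.786, with 56 counts in WT replicate 3 and none in WT replicate 4, and Pcdh9 the least at 0.152. The CV of CPM within a group had a median of 62.5% in Ptch1cKO and 76.0% in WT for alpha members, and of 21.7% in Ptch1cKO and 23.1% in WT for the non-clustered members. These figures describe the libraries and were not tested.

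**Figure D5:**
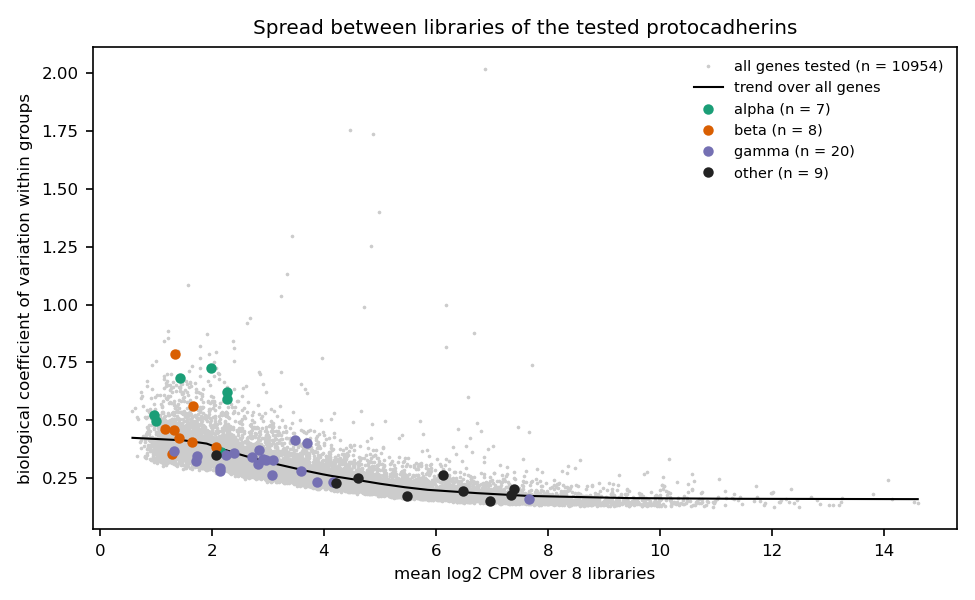
Biological coefficient of variation within groups against mean log2 CPM for all 10954 genes tested (grey), with the trend over all genes (line) and the 44 tested protocadherins coloured by class. Of the 7 alpha members 6 lie above the trend, and the gamma and other members are scattered about it.

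No listed factor that acts on protocadherin promoters was called. Of 18 genes for promoter choice and chromatin (CTCF, cohesin and silencing factors), 16 were tested, 0 were called by edgeR or DESeq2 and 0 had an unadjusted p under 0.05. Of these 6 had a positive and 10 a negative fold change, with a median of -0.07 on the log2 scale. Ctcf, which binds the clustered promoters and their enhancers, averaged 111 ± 9.74 CPM in Ptch1cKO and 106 ± 32.2 CPM in WT (log2 fold change 0.07, SE 0.19). The cohesin subunit gene Rad21 averaged 374 ± 51.6 CPM in Ptch1cKO and 361 ± 46.4 CPM in WT (0.05, SE 0.14). Smchd1, whose loss in mice raises clustered protocadherin transcripts, averaged 32.3 ± 7.12 CPM in Ptch1cKO and 35.4 ± 7.83 CPM in WT (-0.13, SE 0.22).

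Of 24 intracellular partners and proteases, 22 were tested, 0 were called by edgeR or DESeq2, and 13 had a positive and 9 a negative fold change (median 0.05 on the log2 scale). An unadjusted edgeR p under 0.05 was found for 3 of the 22, where 9.34% of all genes tested had one. Cyfip1, of the WAVE actin complex, had 457, 567, 399 and 519 CPM in Ptch1cKO, and 286, 327, 362 and 423 CPM in WT (log2 fold change 0.47, SE 0.15, edgeR unadjusted p = 0.00524, adjusted p = 0.328). Only Ptch1cKO replicate 3 and WT replicate 4 overlapped for Cyfip1. Its relative Cyfip2 lay the other way, with 675, 678, 584 and 572 CPM in Ptch1cKO and 680, 787, 705 and 900 CPM in WT (-0.29, SE 0.12, unadjusted p = 0.0327, adjusted p = 0.482). Ncstn, a subunit of the gamma-secretase that cuts clustered protocadherins, averaged 27.8 ± 7.65 CPM in Ptch1cKO and 18.9 ± 5.13 CPM in WT (0.55, SE 0.26, adjusted p = 0.533).

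Among 30 classical and other cadherins, the nearest relatives of the family, 23 were tested and 0 called by edgeR or DESeq2. An unadjusted edgeR p under 0.05 was found for 3 of the 23, where 9.34% of all genes tested had one. Fold changes were positive for 8 and negative for 15, with a median of -0.15 on the log2 scale. Cdh2, the N-cadherin that binds protocadherins of the delta-2 group, averaged 150 ± 24.4 CPM in Ptch1cKO and 122 ± 30.1 CPM in WT (log2 fold change 0.31, SE 0.18, edgeR adjusted p = 0.638). Cdh10 averaged 48.7 ± 8.06 CPM in Ptch1cKO and 67.5 ± 7.84 CPM in WT (-0.47, SE 0.17, adjusted p = 0.404). Cdh9 averaged 22.7 ± 6.45 CPM in Ptch1cKO and 15.1 ± 3.41 CPM in WT (0.58, SE 0.26, adjusted p = 0.515). Dchs1, a giant cadherin of the Fat-Dachsous pathway, averaged 5.03 ± 1.56 CPM in Ptch1cKO and 11.7 ± 9.07 CPM in WT (-1.21, SE 0.48, adjusted p = 0.457). WT replicate 1 held 24.4 CPM of Dchs1, against 2.88 to 10.3 CPM in the other WT libraries, and without it the log2 fold change was -0.58 (SE 0.42, adjusted p = 0.725). Without the count filter Dchs1 was called, at -1.20.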

How the data were processed

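Exome-captured RNA of 4 Ptch1cKO and 4 WT libraries was analysed. Per the submitters' processing notes, reads were handled with bcl2fastq 2.18 and STAR 2.5 on mm10. The sources used here do not give the counting program, its annotation or its strand setting. The deposited gene counts are whole numbers of reads per symbol, not normalized. The authors also deposited TPM, used here for levels per length. The ratio of count to TPM implied lengths that, for alpha and gamma rows, included the shared constant exons. The sources do not state how reads in those exons were assigned.

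Counts were fitted in R 4.3.3 with edgeR 4.0.16 (filterByExpr by group with minimum count 10, TMM scaling, robust quasi-likelihood F test, group as the only term) on all 8 libraries. This kept 10954 of 20578 genes with a count. Benjamini-Hochberg adjustment ran over all genes tested, and the SE is the size of the log2 fold change divided by the square root of F. CPM use TMM-scaled library sizes. Protocadherins under the filter were compared by exact permutation of CPM. Alternatives were DESeq2 1.42.0 and its size factors, no filter, a fit without robust estimation, limma 3.58.1 on log2(TPM + 0.1), a replicate block and left-out libraries. Positions are those of RefSeq on GRCm38.p6, the assembly of mm10, and exons those of GENCODE M21. The depth of 4061274 to 7206462 counts leaves most alpha and beta members with few counts, and intervals cover the spread between these libraries only. No 2 libraries agreed within sampling noise.

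Members and lists were chosen with earlier results of these data known. Named genes were Ptch1, every non-clustered and C-type protocadherin, the 5 clustered members per class with the highest TPM, tested protocadherins with an unadjusted p under 0.05 or without overlap between groups, up to 5 list members with an unadjusted p under 0.05, and Ctcf, Rad21, Smchd1 and Cdh2. Pcdha2, Pcdha4, Pcdha10, Pcdhb16, Pcdhb19, Pcdhga1, Pcdhga3, Pcdha4-g and Pcdha7 fall outside this rule and were named after their values were seen. Same-numbered libraries did not deviate together (correlations from -0.166 to 0.0179), so numbers were not used as pairs. The numbers are those of the sample titles, and the deposited count columns of Ptch1cKO replicates 3 and 4 carry other numbers. Prefixes of the column names also differ between the genotypes, and their meaning is not given. A grouping that they may stand for cannot be told apart from genotype.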

Additional observations from a re-analysis of the deposited data

Results flagged for a closer look

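In 94 groups of 4 libraries examined, 8 values stood apart from the other 3 by more than Dixon's 95% critical ratio. For normally distributed values chance flags about 1 group in 20. That rate does not hold near 0, where a lone count among libraries at 0 is always flagged, as both Pcdhac1 values were. Pcdhgb7 had 16.2 CPM in WT replicate 3, against 6.39 to 7.82 CPM in the other WT libraries. Pcdhb15 had 7.23 CPM in WT replicate 2, against 1.40 to 1.68 CPM in the others. Pcdhac2 had 7.13 CPM in Ptch1cKO replicate 3, against 3.65 to 4.13 CPM in the other Ptch1cKO libraries, and 1.24 CPM in WT replicate 4, against 4.19 to 4.71 CPM in the other WT libraries. Pcdhac1 had 0.331 CPM in Ptch1cKO replicate 4 and 0.28 CPM in WT replicate 3, 2 counts each, against 0 in all others of its group. Among the regulators, Ctcf had 125 CPM in Ptch1cKO replicate 1, against 105 to 108 CPM in the other Ptch1cKO libraries, and Rad21 had 297 CPM in Ptch1cKO replicate 2, against 395 to 405 CPM in the others.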

How the results depend on the processing

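Of 570 comparisons of 38 named genes with an alternative, 529 kept direction and side of the threshold, 39 changed direction in 12 genes and 2 passed the threshold (Ptch1 at -0.66 and Dchs1 at -1.20, log2, both without the count filter). The cause of the changes was not tested. Low counts limit alpha and beta members most. The number of protocadherins called was 0 except without the count filter (1). Genes called in all were 199 without the filter, 79 with DESeq2, 2 with limma on TPM, 5 with the replicate block, 3 without WT replicates 2 and 3, and 1 to 19 with 1 library left out, against 11. Positive fold changes without the filter were 9 of the alpha, 6 of the beta and 5 of the other members, of more members tested. They were 7 of the gamma members with limma on TPM, and 5 of the beta and 6 of the other members without WT replicates 2 and 3. With 1 library left out they were 2 to 4 for beta and 2 to 5 for other members. Fits with libraries left out ran the count filter anew, so the members tested could differ. The median log2 fold change without WT replicates 2 and 3 was 0.35 for beta and 0.32 for all members.

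Without WT replicates 2 and 3 the log2 fold change was 0.25 for Pcdh19, 0.02 for Pcdh7, 0.46 for Pcdh11x, 0.46 for Pcdha5, 0.96 for Pcdhb17 and -0.27 for Ctcf. With limma on TPM it was -0.06 for Pcdhgc3, 0.71 for Pcdhb17, -0.00014 for Ctcf and -0.07 for Rad21. With the replicate block it was 0.23 for Pcdhb17 and 0.06 for Pcdhgb5; the block changed no call of a protocadherin. With 1 library left out it ran from -0.15 to 0.12 for Pcdh15, -0.25 to 0.03 for Pcdh19, -0.18 to 0.04 for Pcdh7, -0.19 to 0.23 for Pcdh11x, -0.14 to 0.31 for Pcdh20, -0.0013 to 0.17 for Pcdhgc3, -0.70 to 0.08 for Pcdha5, -0.05 to 0.80 for Pcdha12, -0.44 to 0.41 for Pcdhb17, -0.39 to 0.45 for Pcdhgb5, -0.06 to 0.22 for Ctcf and -0.02 to 0.15 for Rad21. Ratios of class sums moved by less than their replicate spread, between 1.27 and 1.77 for alpha, 0.634 and 1.0 for beta, 0.98 and 1.15 for gamma, and 0.914 and 1.11 for other members. Among named genes that kept their direction, leaving out 1 library also gave 0.23 to 0.49 for Pcdh17, 0.19 to 0.47 for Pcdh10, 0.20 to 0.59 for Pcdhga11, -0.83 to -0.26 for Pcdhb18, -0.57 to -0.05 for Pcdhb14, 0.23 to 0.77 for Pcdhb20 and 0.18 to 0.46 for Cdh2.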
